A study of Mus musculus and Mus musculus
Rattus norvegicus with 30 samples.

Results

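The genes described here are 49 imprinted genes, which in mouse are expressed mainly or only from the copy inherited from one parent. They were taken by symbol from the RNA-seq count tables, out of 34923 genes listed for the mouse genome. By textbook knowledge of the mouse, 25 are expressed mainly from the paternal copy and 22 mainly from the maternal copy. Gnas and Ddc were set apart as mixed, since their imprinting depends on the transcript or tissue. Tissue dependence also holds for several genes given 1 role, so counts by parental group rest on a simplified split. Of the 49 genes, 48 were listed in both tables of mouse embryonic stem cells (mESCs), where Slc22a2 was listed for 1 replicate only. In RMES cells all 49 were listed for the mouse genome and 38 for the rat genome. The 11 without a row of the same symbol in the rat table were H19, Airn, Kcnq1ot1, Peg10, Meg3, Rian, Mirg, Dio3, Peg13, Mcts2 and H13. Slc22a2, a transporter of organic cations, had 0 counts on the mouse genome in all 4 RMES libraries and 1 count in all on the rat genome, and was not tested.

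The study compared Cdx2 of mouse (mCdx2) and rat (rCdx2) in 2 kinds of stem cells, to ask how the protein and the genome it acts on differ between these rodents. RMES cells were made by fusing a haploid mouse with a haploid rat embryonic stem cell and hold 1 mouse and 1 rat genome in each cell. The mESC RNA-seq comprised 10 groups of 2 libraries, namely WT, mCdx2-OE, rCdx2-OE and 7 lines expressing rCdx2 with 1 or more of its differing residues mutated (R1, R2, R3, R12, R13, R23 and R123). RMES RNA-seq comprised 2 libraries labelled WT, 1 of mCdx2-OE and 1 of rCdx2-OE, and each was counted once per genome. Constructs were delivered by lentivirus into stable lines and induced with doxycycline (DOX), for 48 h where a time is given for mCdx2 and rCdx2 and with no time given for the mutants. The labels call the reference WT, and the study's text describes it for mESCs as the state before DOX. Whether WT cells carried an uninduced construct is not given in the sources used here, so a line and its induction cannot be told apart, and neither is the parent from which each haploid genome came. The first and the second mESC library of each group were deposited in separate tables, and Cdx2 was higher in the first library of all 7 mutants. Nothing tied the libraries of a group to separate cultures, so the p-values measure the spread between these libraries, which may be technical.

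Totals ran from 12698443 to 94686029 counts in mESC libraries, highest in the 2 WT libraries. In RMES they ran from 36166038 to 41418817 on the mouse genome and from 29453412 to 35249756 on the rat genome. Levels are given as CPM, counts per 1000000 counts after TMM scaling within a table. In mESCs Cdx2 was at 1.36 and 1.21 CPM in WT and between 37.2 and 147 CPM in the 18 induced libraries. The RMES libraries labelled WT went against that label. They held 129 and 127 CPM of Cdx2 on the mouse genome and 453 and 440 CPM on the rat genome, against 968 and 4.45 CPM on the mouse genome and 47.2 and 880 CPM on the rat genome in mCdx2-OE and rCdx2-OE. On the rat genome Cdx2 averaged 446 CPM in these libraries and 464 CPM over the 2 induced ones. Induction in RMES cells thus names the label of a library, not a rise of Cdx2 from a low level as in mESCs. The libraries with the WT label are called the libraries labelled WT below. Every direction in RMES cells was drawn against them, and no RMES comparison can be made without them. Pluripotency markers summed to 5185 to 5275 CPM on the mouse genome in these libraries and 2089 to 2145 CPM in the induced ones, and the 9 trophoblast markers, Cdx2 among them, to 299 to 311 CPM against 1033 to 1856 CPM. On the rat genome these sums were 3741 to 3805 CPM against 1233 to 1342 CPM and 742 to 774 CPM against 1019 to 1955 CPM. Posterior mesoderm markers summed to 23.6 to 24.5 CPM on the mouse genome in the libraries labelled WT and 1.33 to 1.55 CPM in the induced ones. They were under 0.66 CPM in all 4 on the rat genome. Of 4 such markers tested on the mouse genome, 1 was higher and 2 lower at an adjusted p under 0.05 and a fold over 2. Their sums in mESCs were 3.78 to 4.42 CPM in WT and 1.17 to 3.80 CPM in induced libraries. On the mouse genome Hoxa9, a target of Cdx2 in the posterior body, was at 43.9 and 46.7 CPM against 3.27 and 3.95 CPM, T, a gene of the primitive streak, at 13.6 and 14.4 CPM against 0.0715 and 0 CPM, and Krt8, a keratin of trophoblast, at 6.63 and 6.53 CPM against 359.6 and 451 CPM. In mESCs the pluripotency markers summed to 4048 to 4074 CPM in WT and 2439 to 4095 CPM in induced libraries. The trophoblast markers there summed to 160 to 162 CPM and 196 to 838 CPM. The trophoblast sums include Cdx2, at 37.2 to 147 CPM in the induced mESC libraries and up to 968 CPM in the RMES ones. They are thus not free of the construct. Primitive endoderm markers summed to 5.78 to 6.25 CPM in WT mESCs and 16.6 to 33.0 CPM in induced ones. On the RMES mouse genome their sums were 4.88 to 6.48 CPM against 15.38 to 15.40 CPM, and on the rat genome 4.30 to 4.50 CPM against 16.3 to 19.5 CPM. The part of these markers in the results was not tested. In bulk RNA, fewer cells of a type and less RNA per cell cannot be told apart.

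Most imprinted genes lie in clusters, which carry a control region that is methylated on the copy from one parent. The methylated copy recruits Zfp57 and Trim28, which keep the mark through early development, while the unmethylated copy can start a long non-coding RNA or bind Ctcf, which sets which neighbours are expressed. Many members act on growth of the fetus and placenta, and Cdx2 is a regulator of the trophectoderm, the first lineage of the placenta. A haploid genome has no second copy, so the reads of RMES cells report 1 copy of each species.

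Sequences are shown for H19, Sfmbt2, Airn and Nnat, which are members whose levels changed and whose surroundings also changed in chromatin accessibility. The first pair are the central 201 bases of Cdx2 ChIP-seq peaks of mESCs. The H19 peak centre lies at chr7:142593778-142593978 (GRCm38, plus strand), between H19 and Igf2 and 15735 bases upstream of the H19 start. The Sfmbt2 peak centre lies at chr2:10350783-10350983 (GRCm38, plus strand), at -19627 bases from the Sfmbt2 start. Capitals mark TTTAT, the core of the Cdx2 motif, or ATAAA, its reverse complement.
H19 peak centre: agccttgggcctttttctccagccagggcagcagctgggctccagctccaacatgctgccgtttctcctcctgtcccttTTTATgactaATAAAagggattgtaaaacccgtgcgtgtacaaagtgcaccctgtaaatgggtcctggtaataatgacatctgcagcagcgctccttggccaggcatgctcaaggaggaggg
Sfmbt2 peak centre: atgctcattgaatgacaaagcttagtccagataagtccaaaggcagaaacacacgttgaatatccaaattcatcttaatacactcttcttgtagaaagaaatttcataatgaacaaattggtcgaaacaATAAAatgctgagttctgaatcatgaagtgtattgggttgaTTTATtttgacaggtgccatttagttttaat
Both held the core 2 times, and 1 of the copies at H19 extended to TTTATG. On either strand the core was present in 89.6% of all 91665 peak centres of this length and in 63 of 70 of the peaks near members (90%), and TTTATG in 40.7% and 30 of 70 (42.9%).

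The second pair are promoters from RefSeq (GRCm38.p6), from 250 bases before to 50 bases after the start. The Airn promoter, inside an intron of Igf2r, lies at chr17:12741061-12741360 (plus strand). The Nnat promoter lies at chr2:157559828-157560127 (plus strand). Capitals mark TTTAT or ATAAA in the Airn promoter and TGCCGC or its reverse complement GCGGCA, the letters bound by Zfp57, in the Nnat promoter.
Airn promoter: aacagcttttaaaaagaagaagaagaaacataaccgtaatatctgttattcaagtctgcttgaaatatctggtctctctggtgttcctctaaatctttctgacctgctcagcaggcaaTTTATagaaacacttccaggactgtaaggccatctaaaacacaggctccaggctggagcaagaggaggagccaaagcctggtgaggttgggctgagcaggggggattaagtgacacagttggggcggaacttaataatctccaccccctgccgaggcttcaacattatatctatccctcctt
Nnat promoter: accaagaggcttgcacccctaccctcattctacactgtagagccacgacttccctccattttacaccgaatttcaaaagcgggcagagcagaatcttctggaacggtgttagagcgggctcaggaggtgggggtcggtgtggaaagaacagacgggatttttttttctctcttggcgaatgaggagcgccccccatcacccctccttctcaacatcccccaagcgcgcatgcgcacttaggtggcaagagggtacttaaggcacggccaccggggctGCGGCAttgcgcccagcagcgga
The Nnat promoter held 17 CG pairs and the Airn promoter 3, against a median of 7 over the 32851 promoters of the table. TGCCGC on either strand was found in 11.6% of all those promoters and in 15 of the 59 promoters of members (25.4%). Counted by gene, 14 of the 40 members with a promoter there held it in at least 1 promoter (35%). A match is a description of letters only.

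The first question was from which haploid genome each imprinted gene was read in the RMES libraries labelled WT. Of the 38 members listed for both genomes, 29 had at least 50 counts on 1 genome in both libraries. Mouse share means the CPM on the mouse genome as a percentage of the CPM on both, not corrected for the length of the gene models. Of the 29, 4 had a mouse share over 90% and 3 a share under 10% in both libraries, which is 13.8% and 10.3% against 7.91% and 5.04% of the 10783 symbols that passed the same count minimum. The median share was 58.3% for the 29 members and 51.5% for all. Between 25% and 75% lay 15 members (51.7%), against 72.1% of all symbols.

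Read almost only from the mouse genome were Snrpn, Rasgrf1, Plagl1 and Usp29, which are all expressed from the paternal copy in mouse. Snrpn, a splicing protein gene of the Prader-Willi region, had 134 and 127 CPM on the mouse genome and 0.731 and 0.434 CPM on the rat genome, a mouse share of 99.5% and 99.7%. Rasgrf1, an activator of Ras, had 6.91 and 7.72 CPM on the mouse genome and 1 count in each library on the rat genome. Plagl1, a zinc finger regulator of other imprinted genes, had 526 and 530 CPM on the mouse genome against 27.4 and 30.4 CPM. Usp29, which starts beside Peg3, had 7.80 and 8.03 CPM on the mouse genome and 21 and 16 counts on the rat genome. The rat gene models were shorter for these genes, from 2159 against 1443 bases for Snrpn to 18078 against 6322 for Usp29. With each CPM divided by the length of its gene model, an alternative chosen after seeing the data, Snrpn, Rasgrf1 and Plagl1 stayed over 90%, and Usp29 was at 78.04% and 84.03%.

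Read almost only from the rat genome were Igf2, Nnat and Sfmbt2, also of the paternally expressed group. Igf2, the insulin-like growth factor of fetal growth (chr7:142650766-142666816 in GRCm38), had 2 and 5 counts on the mouse genome (0.0617 and 0.139 CPM) and 15.0 and 15.1 CPM on the rat genome. Nnat, a small membrane protein of neurons (chr2:157560078-157562522), had 0.463 and 0.781 CPM on the mouse genome and 47.6 and 45.7 CPM on the rat genome. Sfmbt2, a Polycomb-type protein needed in trophoblast (chr2:10370510-10595253), had 0.493 and 0.725 CPM on the mouse genome and 66.7 and 61.1 CPM on the rat genome. For Igf2 the gene models are of like length, 5723 and 5641 bases.

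Inpp5f, an inositol phosphatase, followed at a mouse share of 11.1% and 11.9%, and was at 6.69% and 7.24% per kb of gene model. Sgce, Igf2r, Tssc4 and Trappc9 had mouse shares between 48.96% and 54.13% in both libraries. Per kb these were 48.02% and 48.74% for Igf2r, 45.0% and 45.1% for Tssc4 and 38.7% and 41.0% for Trappc9, but 13.8% and 13.2% for Sgce, whose gene models are 10612 bases for mouse and 1688 bases for rat. Per kb 3 of the 29 members were over 90% and 4 under 10%, against 5.94% and 7.23% of all symbols, and the median share was 45% for members and 38.5% for all. The edgeR test of the mouse against the rat genome within these libraries, which takes no account of length, called 22 of 37 members, 12 higher and 10 lower on the mouse genome, where 42.9% of all 13605 shared symbols tested were called, 23.8% higher and 19.1% lower. At any fold change 30 members passed, and 81.7% of all symbols. Among paternally expressed members 14 of 19 were called, 8 higher and 6 lower on the mouse genome, and among maternally expressed members 6 of 16, 2 higher and 4 lower. The largest differences were Snrpn at 7.75 ± 0.11 on the log2 scale (SE, adjusted p = 6.01e-26) and Igf2 at -7.21 ± 0.24 (SE, adjusted p = 1.66e-18), leaving aside genes with libraries at 0. Igf2 was at -7.94 without the second library labelled WT.

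**Figure D1:**
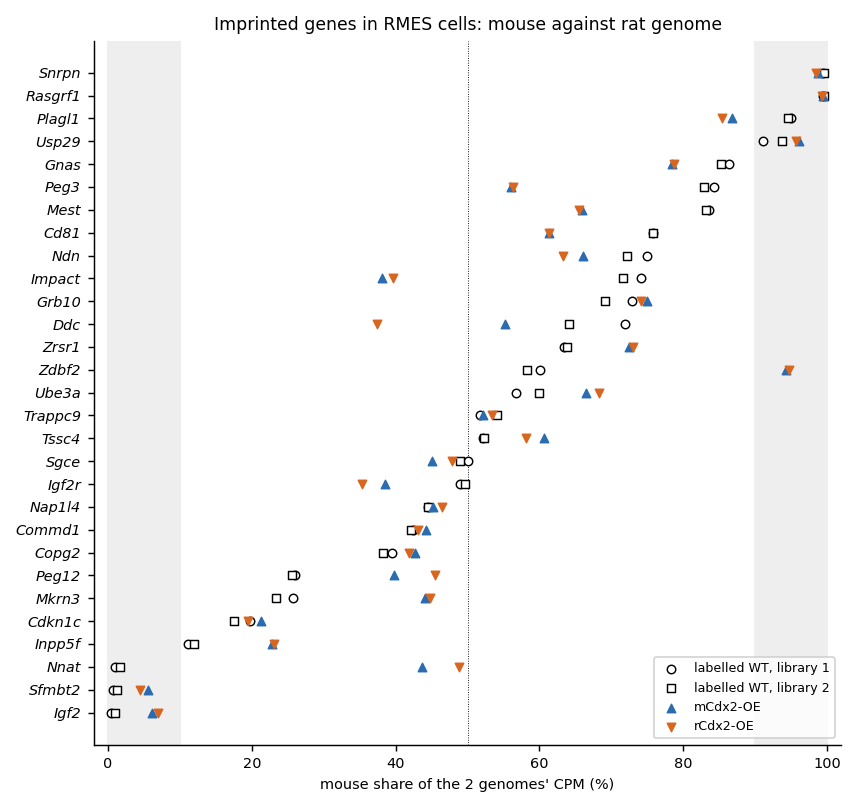
Mouse share of CPM, in percent on the horizontal axis, for the 29 members with at least 50 counts on 1 genome in all 4 RMES libraries, one row a gene ordered by the mean of the libraries labelled WT. Open symbols are the libraries labelled WT and triangles mCdx2-OE and rCdx2-OE. Grey bands mark shares under 10% and over 90%. Nnat moves from under 2% to 43.7% and 48.9%, and Zdbf2 from 60.1% and 58.3% to 94.3% and 94.8%.

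The next comparison asked which members differed on the mouse genome between induced RMES libraries and those labelled WT. Here mCdx2-OE and rCdx2-OE were treated as 2 libraries of 1 group. Phlda2 and H19 rose most among members seen in every library, and the non-coding RNAs of the Dlk1-Dio3 cluster fell most. Called means an adjusted p under 0.05 over all genes and a fold change over 2. Of 48 members tested, 28 were called, 20 higher and 8 lower, where 44.5% of all 16887 genes were called, 28.3% higher and 16.1% lower. The median change was 0.32 on the log2 scale for members and 0.08 for all genes. At any fold change 42 members passed, and 81.9% of all genes. With scaling by total counts alone the split was 23 higher and 5 lower, and the median of all genes moved from 0.08 to 0.50.

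Phlda2, a brake on placental growth in the Kcnq1ot1 domain (chr7:143501545-143503150 in GRCm38), had 0.247 and 0.112 CPM (8 and 4 counts) in the libraries labelled WT and 112 and 88.7 CPM in mCdx2-OE and rCdx2-OE. Its change was 9.13 ± 0.21 on the log2 scale (SE, adjusted p = 2.93e-12), and 9.76 without the first library labelled WT. H19, a non-coding RNA that restrains growth (chr7:142575529-142578143), went from 14.7 and 9.70 CPM to 6160 and 7093 CPM, a change of 9.09 ± 0.16 (SE, adjusted p = 3.51e-13). The groups were far apart for both genes. Cdkn1c, an inhibitor of cyclin-dependent kinases, went from 1.05 and 0.837 CPM to 13.8 and 11.8 CPM, and Osbpl5, an oxysterol-binding protein of the same domain, from 0.493 and 0.446 CPM to 16.5 and 19.6 CPM. Their changes were 3.76 ± 0.19 and 5.26 ± 0.20.

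Slc22a3, Slc22a18 and Kcnq1 had 0 counts on the mouse genome in both libraries labelled WT. Slc22a3, a transporter of organic cations that is imprinted in placenta, had 286 and 290 counts in the induced libraries, at least 78.1-fold higher than a floor of 3 counts per library. Slc22a18 had 274 and 216 counts, at least 66.4-fold higher, and Kcnq1, a potassium channel, had 18 and 36 counts, at least 7.3-fold higher. The log2 values fitted for these genes depend on the prior count of the fit, and intervals and floors cover counting error only.

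Paternally expressed genes that rose included Airn, Nnat, Igf2 and Magel2. Airn, the RNA that silences Slc22a2, Slc22a3 and Igf2r in cis on the paternal copy (chr17:12741311-12860136), went from 0.0925 and 0.112 CPM to 10.8 and 12.8 CPM, a change of 6.80 ± 0.28. Nnat went from 0.463 and 0.781 CPM to 33.7 and 40.4 CPM, a change of 5.87 ± 0.18 (SE, adjusted p = 2.55e-11). Igf2 went from 0.0617 and 0.139 CPM to 2.12 and 2.89 CPM, a change of 4.57 ± 0.43, and of 5.26 without the second library labelled WT. All induced libraries lay above both libraries labelled WT for these genes. Peg10, a retroelement-derived gene needed for placenta (chr6:4747306-4760517), was already at 1896 and 2012 CPM and reached 6719 and 7459 CPM, a change of 1.86 ± 0.05. Magel2, Dlk1, Sfmbt2, Dio3, Ndn, Inpp5f and Mkrn3, with Zim1 and H13 of the maternally expressed group, also rose, by 4.44 down to 1.03 on the log2 scale, and Mkrn3 was under the fold threshold with DESeq2, with RLE scaling or without the second library labelled WT, at 0.98 in the last. Magel2, at 4.44, was at 3.83 and 5.63 without the first and the second library labelled WT, in which it had 2 and 8 counts.

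The maternally expressed RNAs Rian, Meg3 and Mirg, which lie in a row on chromosome 12, fell together. Rian went from 885 and 922 CPM to 8.13 and 8.32 CPM, a change of -6.78 ± 0.07 (SE, adjusted p = 1.82e-14). Meg3 (chr12:109541001-109571726) went from 435 and 484 CPM to 10.3 and 11.3 CPM, a change of -5.41 ± 0.09 (SE, adjusted p = 1.35e-13). Mirg, the host of many miRNAs, went from 32.7 and 39.0 CPM to 0.763 and 1.39 CPM, a change of -5.06 ± 0.18. Dlk1 and Dio3, the paternally expressed coding genes at the ends of the same cluster, moved the other way. Dlk1 had 10 and 13 counts in the libraries labelled WT and 98 and 107 in the induced ones, and Dio3, which inactivates thyroid hormone, had 26 and 22 counts against 172 and 124.

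Impact, a regulator of translation under stress, fell from 491 and 476 CPM to 116 and 107 CPM. Grb10, an adaptor that dampens growth factor receptors, fell from 30.7 and 30.8 CPM to 9.75 and 8.49 CPM. Zdbf2 went from 284 and 296 CPM to 109 and 130 CPM, Snrpn from 134 and 127 CPM to 56.4 and 51.9 CPM and Ddc, an enzyme of dopamine synthesis, from 6.48 and 6.27 CPM to 3.03 and 2.01 CPM. Both induced libraries lay below both libraries labelled WT for all 5. With total-count scaling the last 3 no longer passed the fold threshold, at -0.85, -0.85 and -0.92 on the log2 scale.

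On the rat genome 18 of 36 members tested were called, 15 higher and 3 lower, where 42.5% of 14627 genes were called, 28.3% higher and 14.2% lower. The median change was 0.44 for members and 0.07 for all genes on the log2 scale. At any fold change 30 members passed, and 82.5% of all genes. With total-count scaling the split was 16 higher and 2 lower and the median of all genes was 0.28. Of 8 members of the Kcnq1ot1 domain tested, 5 were called here as well, all higher. Phlda2 went from 0.256 and 0.200 CPM to 72.2 and 66.8 CPM (8.24 ± 0.16, SE, adjusted p = 2.05e-15), Cdkn1c from 4.28 and 3.94 CPM to 51.1 and 48.6 CPM, Osbpl5 from 1.10 and 0.801 CPM to 31.7 and 34.8 CPM and Slc22a18 from 24 and 23 counts to 345 and 385 counts. Slc22a3 went from 0.549 and 0.400 CPM to 7.998 and 8.26 CPM. Kcnq1 had 3 counts in all in the libraries labelled WT and 51 and 42 in the induced ones, a ratio of 23.5 (95% counting interval 7.78 to 115.76). The others of the domain did not pass the fold threshold, with means of 304 and 204 CPM for Nap1l4, 29.0 and 20.7 CPM for Tssc4 and 68.7 and 114 CPM for Cd81 in the libraries labelled WT and the induced ones.

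Peg3, a zinc finger gene tied to maternal behaviour and growth, rose on the rat genome from 148 and 164 CPM to 566 and 610 CPM. Magel2 and Ndn, neighbours in the Prader-Willi region, rose by 4.78 ± 0.32 and 1.98 ± 0.12 on the log2 scale. Zim1, Dlk1, Gnas, Igf2, Plagl1 and Mest also rose, by 3.06 down to 1.03. Zdbf2 (in mouse chr1:63273265-63314576) fell from 189 and 212 CPM to 6.56 and 7.18 CPM, a change of -4.86 ± 0.08 (SE, adjusted p = 7.88e-16). Grb10 fell from 11.4 and 13.7 CPM to 3.25 and 2.95 CPM, and Peg12 from 25.5 and 26.7 CPM to 14.3 and 11.7 CPM. Peg12 did not pass the fold threshold with total-count scaling, at -0.79, or without the second library labelled WT, at -0.98, or without rCdx2-OE, at -0.87. Mest fell short of the fold threshold without the first library labelled WT, at 0.99, or without mCdx2-OE, at 0.93.

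**Figure D2:**
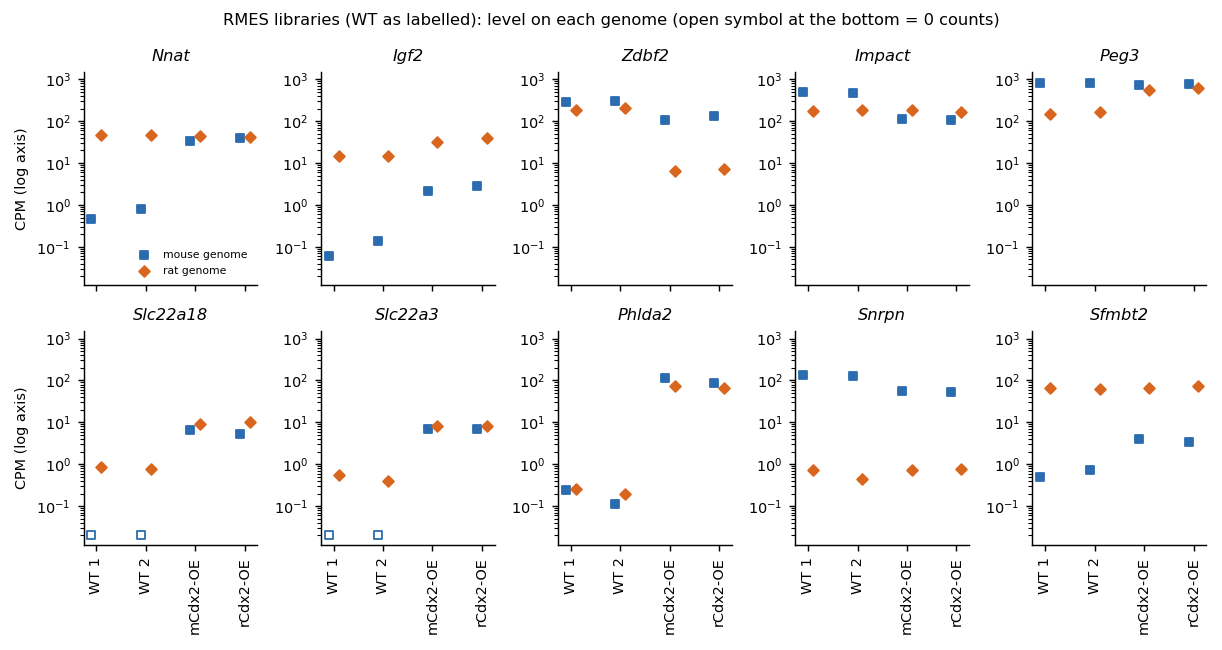
Levels in CPM, on log axes, of 10 members in the 4 RMES libraries, squares for the mouse genome and diamonds for the rat genome, with open symbols at the bottom for 0 counts. Nnat, Slc22a18 and Slc22a3 go from near or at 0 to a level like that of the rat genome, Zdbf2 falls more on the rat genome, and Snrpn keeps to the mouse genome in every library.

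Whether the 2 genomes changed unequally in the same libraries was tested by the interaction of genome and induction, in which gene length cancels. Of 37 members tested, 25 differed at an adjusted p under 0.05, 14 with the larger value on the mouse genome and 11 on the rat genome, where 62.1% of all 13605 symbols differed, 30.3% and 31.8% in those directions. Among paternally expressed members 16 of 19 differed, and among maternally expressed members 7 of 16. In 12 of the 25 the fitted changes of the genomes had opposite signs, and the share among all symbols was not computed. Some of these had a small change on one genome, such as -0.08 for Peg3 on the mouse genome and -0.12 for Nnat on the rat genome. No member passed the fold threshold in opposite directions on the 2 genomes.

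Nnat differed by 5.97 ± 0.17 on the log2 scale (SE, adjusted p = 1.49e-18). It rose on the mouse genome, while on the rat genome it stood at 47.6 and 45.7 CPM in the libraries labelled WT and 43.4 and 42.2 CPM in the induced ones. Its mouse share was 43.7% and 48.9% in the induced libraries. Zdbf2 differed by 3.56 ± 0.06 (SE, adjusted p = 1.52e-22), with a fall on both genomes that was larger on the rat genome. Igf2 differed by 3.29 ± 0.41, and by 4.02 without the second library labelled WT, and Sfmbt2 by 2.41 ± 0.23. Both stayed mostly rat, with mouse shares of 6.11% and 6.96% for Igf2 and of 5.59% and 4.42% for Sfmbt2 in the induced libraries. For Slc22a3 and Slc22a18 the differences of 6.80 and 7.11 rest on mouse counts of 0 in the libraries labelled WT.

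Of the members with the larger value on the rat genome, Impact differed by -2.11 ± 0.06, since it fell on the mouse genome and was at 171 and 188 CPM against 187 and 163 CPM on the rat genome. Peg3 differed by -2.02 ± 0.04 (SE, adjusted p = 2.87e-22), with 796 CPM in both libraries labelled WT against 723 and 786 CPM on the mouse genome. Its mouse share went from 84.4% and 82.9% to 56.1% and 56.3%. Snrpn, Plagl1, Mest, Ddc and Cd81 followed at -1.67 to -1.0, and Igf2r, Gnas, Ndn and Sgce at -0.76 to -0.20. The calls of Sgce, at -0.20, and Usp29, at 0.92, had adjusted p-values of 0.0478 and 0.0375. That of Sgce was lost without either library labelled WT or without mCdx2-OE, and also with RLE scaling, no filter on low counts or DESeq2 (adjusted p = 0.0657, 0.0559 and 0.256). That of Usp29 was lost without the first library labelled WT or without either induced one, and with DESeq2 (adjusted p = 0.101).

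In the induced libraries 36 of the 38 shared members had at least 50 counts on 1 genome. Of these, 4 had a mouse share over 90% (Usp29, Snrpn, Rasgrf1 and Zdbf2) and 2 a share under 10% (Igf2 and Sfmbt2), and 25 lay between 25% and 75%. The proportions with a mouse share over 90%, under 10% and between 25% and 75% were 11.1%, 5.56% and 69.4% of the members. Among all symbols they were 4.15%, 2.17% and 81.9%. Per kb of gene model 3 members were over 90% and 2 under 10% (8.33% and 5.56%), against 3.04% and 3.41% of all symbols. No test of these shares was made.

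In mESCs, whose counts do not separate parental copies, the question was which members changed with mCdx2 and with rCdx2 against WT. The growth regulators of the H19-Igf2 locus and the placental genes Peg10, Phlda2 and Slc22a3 rose with both proteins, and Nnat and Ddc fell. With mCdx2-OE 21 of 47 members tested were called, 19 higher and 2 lower, where 33.4% of 16000 genes were called, 18.4% higher and 15% lower. With rCdx2-OE 24 were called, 22 higher and 2 lower, where 34.5% of genes were called, 19% higher and 15.4% lower. At any fold change 40 and 43 members passed, and 69.7% and 70.6% of all genes. Both comparisons share the 2 WT libraries. The median change was 0.75 and 0.77 on the log2 scale for members and -0.03 and -0.04 for all genes. With total-count scaling the medians of all genes were 0.16 and 0.15, and 24 members were called with mCdx2-OE.

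H19 was at 53.5 and 54.3 CPM in WT, 5429 and 4701 CPM in mCdx2-OE and 6168 and 5357 CPM in rCdx2-OE. Its change was 6.55 ± 0.13 and 6.74 ± 0.14 on the log2 scale (SE, adjusted p = 1.18e-14 and 6.24e-15). Igf2, its neighbour on chromosome 7, had 6 and 16 counts in WT and reached 20.2 and 16.5 CPM in mCdx2-OE and 23.03 and 23.97 CPM in rCdx2-OE, changes of 7.0 ± 0.30 and 7.35 ± 0.30, and of 7.65 and 8.004 without the second WT library. Thus RNA of both genes, which in the embryo come from opposite parental copies, increased, and the copy of origin cannot be told from these counts. Airn had 12 and 17 counts in WT and 9.66 and 10.6 CPM in mCdx2-OE and 12.1 and 17.7 CPM in rCdx2-OE, changes of 5.75 ± 0.29 and 6.29 ± 0.29.

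Peg10 and Sgce, which start beside each other on chromosome 6, rose together. Peg10 was at 170 and 177 CPM in WT, 5229 and 4847 CPM in mCdx2-OE and 6318 and 6347 CPM in rCdx2-OE. Sgce, a sarcoglycan, was at 4.80 and 5.37 CPM in WT, 46.2 and 50.0 CPM in mCdx2-OE and 46.9 and 53 CPM in rCdx2-OE. The change with mCdx2-OE was 4.86 ± 0.11 for Peg10 and 3.24 ± 0.11 for Sgce on the log2 scale.

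In the Kcnq1ot1 domain Phlda2 was at 5.88 and 6.21 CPM in WT, 54.6 and 46.4 CPM in mCdx2-OE and 81.5 and 75.2 CPM in rCdx2-OE. Its change with mCdx2-OE was 3.06 ± 0.12 (SE, adjusted p = 2.41e-12). Cdkn1c went from 2.30 and 2.82 CPM to 11.8 and 13.1 CPM in mCdx2-OE and 18.3 and 16.3 CPM in rCdx2-OE, and Osbpl5 from 0.680 and 0.617 CPM to 4.31 and 5.20 CPM and 6.58 and 5.35 CPM. Kcnq1ot1, the RNA that silences these genes on the paternal copy, rose in the same libraries from 11.8 and 11.6 CPM to 41.5 and 47.4 CPM in mCdx2-OE and 41.2 and 50.4 CPM in rCdx2-OE. In the Igf2r-Airn cluster Slc22a3 went from 12 and 19 counts to 5.14 and 6.37 CPM and 9.04 and 10.1 CPM, while Igf2r, the receptor that clears Igf2, was at 127 and 126 CPM in WT and 168 and 151 CPM in mCdx2-OE, a change of 0.34 ± 0.07 that is under the fold threshold.

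Among genes outside those clusters, Plagl1 went from 36.2 and 38.0 CPM to 201 and 244 CPM in mCdx2-OE and 190 and 228 CPM in rCdx2-OE. Sfmbt2 went from 68.4 and 67.5 CPM to 245 and 248 CPM and 293 and 301 CPM, changes of 1.86 ± 0.06 and 2.13 ± 0.06. Rasgrf1 had 3 and 1 counts in WT. Over the 4 mCdx2-OE and rCdx2-OE libraries its CPM was 30.6 times that of WT (95% counting interval 11.3 to 115.69). Dio3, Ndn, Grb10, Zim1, Gnas and Peg3 rose with both proteins, by 2.17 down to 1.01. Magel2, Dlk1 and Slc22a18 passed with rCdx2-OE only, at 1.05, 1.11 and 1.32, against 0.90, 0.75 and 0.95 with mCdx2-OE. Peg3 with mCdx2-OE was at 0.99 without the first WT library, 0.94 without the second mCdx2-OE library and 0.98 with no filter on low counts. Zim1 was at 0.95 without the second mCdx2-OE library and 0.90 without the second rCdx2-OE library, Gnas at 0.97 without the first mCdx2-OE library and Dlk1 at 0.86 without the first rCdx2-OE library. The call of Magel2 with rCdx2-OE was lost without any 1 of the 4 libraries compared.

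Nnat fell from 19.6 and 19.7 CPM in WT to 3.26 and 2.67 CPM in mCdx2-OE and 3.27 and 2.42 CPM in rCdx2-OE, changes of -2.71 ± 0.17 and -2.75 ± 0.18. Ddc fell from 40.5 and 40.9 CPM to 17.2 and 18.1 CPM and 15.3 and 15.5 CPM. Nnat thus lay below WT in every mCdx2-OE and rCdx2-OE library of mESCs, while on the mouse genome of RMES cells it lay above both libraries labelled WT in both induced libraries. Meg3 was at 485 and 499 CPM in WT and 414 and 371 CPM in mCdx2-OE, and Rian at 515 and 542 CPM and 374 and 428 CPM, changes of -0.33 ± 0.14 and -0.40 ± 0.10 that are under the fold threshold.

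The remaining members had smaller changes. Tssc4, Cd81, Nap1l4, Ube3a, Copg2, Trappc9, Commd1, Zrsr1, Mcts2 and Peg13 were called in none of the comparisons with WT or with the libraries labelled WT, with log2 changes between -0.78 for Commd1 and 0.81 for Ube3a with mCdx2-OE and between -0.50 and 0.34 on the RMES mouse genome. Several of them are imprinted only in brain or placenta. Mcts2 and Peg13 lie inside introns of H13 and Trappc9 on the same strand, and Mcts2 and Zrsr1 are copies of other genes, so that their counts are uncertain. Airn and Igf2r, Kcnq1ot1 and Kcnq1, Mest and Copg2, and Zrsr1 and Commd1 overlap on opposite strands and were counted by strand. Kcnq1 was too low in mESCs to be tested.

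**Figure D3:**
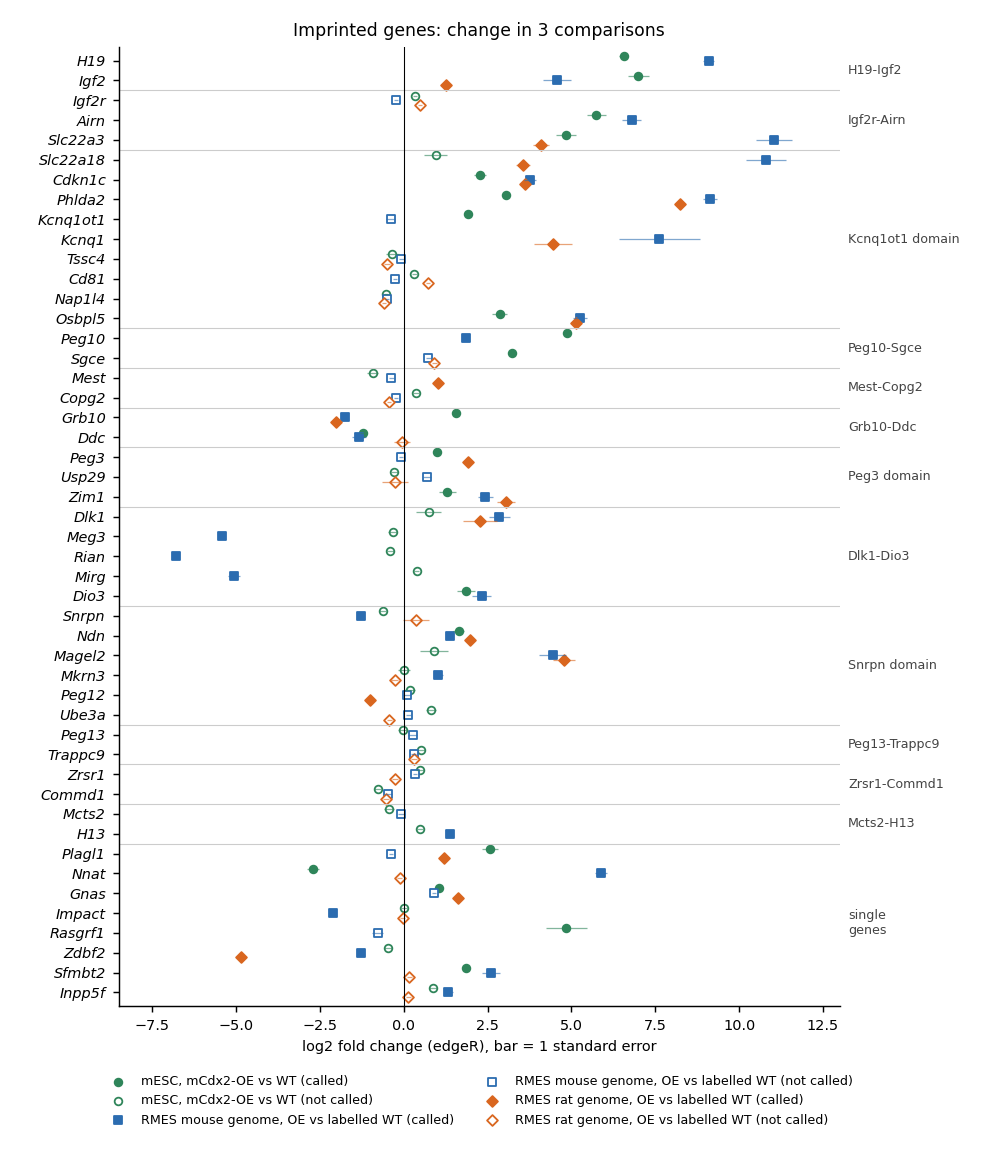
Change of 48 members on the log2 scale (edgeR, bars are 1 SE) in mESCs with mCdx2-OE (circles), on the RMES mouse genome (squares) and on the RMES rat genome (diamonds), grouped by cluster. Filled symbols were called. Slc22a3, Slc22a18 and Kcnq1 on the mouse genome are fitted values against counts of 0 and depend on the prior count. Phlda2, Cdkn1c and Osbpl5 rise in all 3, Rian, Meg3 and Mirg fall on the RMES mouse genome and are not listed for the rat, and Nnat takes opposite directions in mESCs and on the RMES mouse genome.

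Directly compared with each other, mCdx2-OE and rCdx2-OE gave 0 called members of 47 with edgeR, where 0.0188% of all genes were called, 0.00625% higher and 0.0125% lower with mCdx2-OE. At an unadjusted p under 0.05 there were 8 members, and the share of all genes at that level was not computed. DESeq2 called 2 members, Sfmbt2 and Phlda2, both lower with mCdx2-OE, and 21 of 12968 genes. The log2 differences between mCdx2-OE and rCdx2-OE ran from -0.74 ± 0.23 for Slc22a3 to 0.43 ± 0.48 for Rasgrf1 (SE). Phlda2 differed by -0.63 ± 0.11 (SE, adjusted p = 0.103) and Sfmbt2 by -0.27 ± 0.06 (SE, adjusted p = 0.204).

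Next the mutant constructs were set against the intact ones. Over the mean of all 9 constructs 16 of 47 members were called against WT, 13 higher and 3 lower, where 26.7% of genes were called, 13.2% higher and 13.5% lower. At any fold change 40 members passed, and 74.7% of genes. Besides Nnat at -4.95 ± 0.11, Mest at -1.46 ± 0.10 and Magel2 at -1.70 ± 0.35 fell in this mean. A difference of any kind among the 9 constructs was called for 38 of 47 members, where 56.9% of genes were called. With a replicate block in the fit it was called for 42 members and for 9437 of 16000 genes. Of 46 members with a mean of at least 10 counts, 21 had all 4 libraries of intact mCdx2 and rCdx2 above all 14 mutant libraries, which is 45.7% of members against 17.1% of 14962 genes. In 5 members (Usp29, Meg3, Rian, Commd1 and Ddc) all 4 lay below the mutants, 10.9% against 13.8% of genes. Cdx2 itself was at 67.0 to 127 CPM in the 4 intact libraries and at 37.2 to 147 CPM in the mutants, with a median of 63.7 CPM, and its part in these differences was not tested.

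H19 in the 14 mutant libraries lay between 768 and 2109 CPM with a median of 1054 CPM, above both WT libraries and below all 4 intact libraries. Igf2 lay between 1.11 and 5.16 CPM in the mutants with a median of 2.90 CPM, Airn between 1.17 and 4.81 CPM with a median of 1.97 CPM, and Peg10 between 1058 and 3401 CPM with a median of 1519 CPM. These genes were thus at an intermediate level in the mutants. Phlda2 differed between mutants, with 3.64 to 21.0 CPM in their libraries against 5.88 and 6.21 CPM in WT and 46.4 to 81.5 CPM with intact Cdx2. Its mean ± SD (n = 2) was 19.5 ± 1.77, 20.9 ± 0.187 and 16.4 ± 0.854 CPM in R1, R2 and R12 and 6.07 ± 0.233, 3.93 ± 0.308, 4.05 ± 0.363 and 4.24 ± 0.838 CPM in R3, R13, R23 and R123. R1, R2 and R12 thus lay between WT and intact Cdx2, and the 4 constructs with change 3 were the 4 lowest, close to or below the 6.05 ± 0.234 CPM of WT. A difference among constructs was called for Phlda2 (edgeR, adjusted p = 8.04e-13), and single pairs of constructs were not tested. Cdx2 was at 60.6 to 147 CPM in R1, R2 and R12 and at 37.2 to 94.4 CPM in the constructs with change 3.

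Cdkn1c in the mutants ran from 1.31 to 3.87 CPM around the 2.30 and 2.82 CPM of WT, and Osbpl5 from 0.412 to 1.22 CPM around 0.680 and 0.617 CPM. Magel2, a regulator of protein recycling, ran from 0 to 0.277 CPM in the mutants, below the 0.496 and 0.537 CPM of WT and the 0.920 to 1.25 CPM of the intact libraries. Nnat ran from 0.0562 to 0.943 CPM in the mutants, below the 2.42 to 3.27 CPM of the intact libraries, so that its level was lowest where H19 and Igf2 were intermediate. Gnas, the gene of a G protein subunit, was at 120 to 139 CPM in the mutants and 125 and 127 CPM in WT, against 248 to 305 CPM with intact Cdx2. Rian was at 603 to 770 CPM in the mutants, above the 515 and 542 CPM of WT and the 357 to 428 CPM of the intact libraries. Among members with a mean of at least 10 counts, which leaves out Magel2 and Kcnq1, the ratio of the mean with intact Cdx2 to the mean of the mutants was largest for Slc22a3 (7.61), Osbpl5 (7.25) and Igf2 (6.95).

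**Figure D4:**
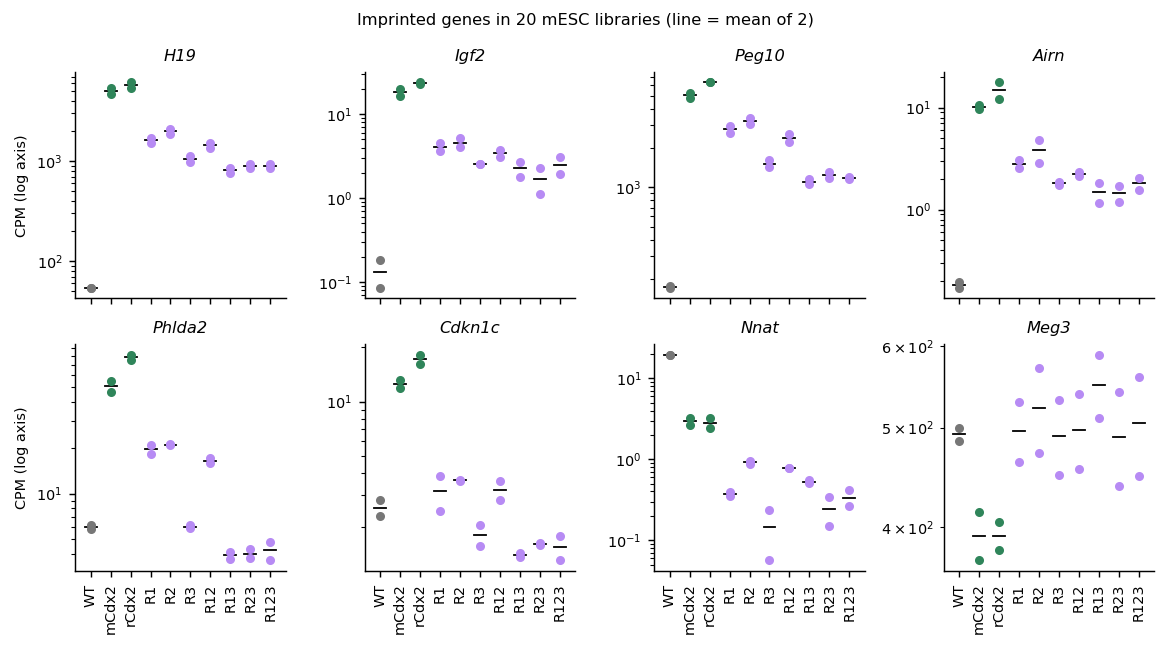
Level in CPM, on log axes, of 8 members in the 20 mESC libraries, one point a library and a bar at the mean of 2, for WT (grey), mCdx2-OE and rCdx2-OE (green) and the 7 mutants (purple). H19, Igf2, Peg10 and Airn sit between WT and intact Cdx2 in the mutants, Cdkn1c sits near WT, Phlda2 does so in the constructs with change 3, and Nnat sits below both.

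The changes on the RMES mouse genome were then compared with those in mESCs, as a difference between RMES and the mean of mCdx2-OE and rCdx2-OE in mESCs. Of 47 members tested 35 differed, 17 with the larger value in RMES and 18 in mESCs, where 56.4% of 16778 genes differed, 29.2% and 27.1% in those directions. In 13 of the 35 the signs were opposite, and the share among all genes was not computed. Of these, only Nnat and Grb10 passed the fold threshold in both cell types. The RMES part rests on the libraries labelled WT, which held Cdx2 reads on both genomes, while WT mESCs were at 1.36 and 1.21 CPM of Cdx2. Nnat differed by 8.57 ± 0.25 (SE, adjusted p = 4.55e-15) and Phlda2 by 5.71 ± 0.29, and H19, which rose in both, by 2.41 ± 0.19. Rian, Mirg and Meg3 differed by -6.37 ± 0.14, -5.47 ± 0.19 and -5.11 ± 0.20. Grb10 rose in mESCs, from 24.6 CPM in both WT libraries to 72.1 and 73.3 CPM in mCdx2-OE, and fell in RMES on both genomes, a difference of -3.19 ± 0.10 (SE, adjusted p = 6.07e-15). Impact was at 193 and 194 CPM in WT mESCs and 187 and 207 CPM in mCdx2-OE, and differed by -2.18 ± 0.11. Airn and Cdkn1c rose in both cell types, and Airn did not differ at the threshold, with 0.74 ± 0.59 (SE, adjusted p = 0.30). The call of Igf2, -2.66 ± 0.90, was lost without the second library labelled WT, at -1.98, and was -3.34 without the second WT library of mESCs. Without the first library labelled WT Phlda2 differed by 6.34. Sfmbt2, Inpp5f, Mcts2 and Mest, which differed by 0.47 to 0.58, also lost their calls in at least 1 fit without a library.

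Genes that keep imprints were read from a list of 20, with the methyltransferases, Tet enzymes, Zfp57, Trim28 and histone methyltransferases. Of these, 7 were called with mCdx2-OE in mESCs, 2 higher and 5 lower, and 7 with rCdx2-OE, 35% in each, close to the 33.4% and 34.5% of all genes. Tet3 and Tet2, which oxidise methylated cytosine, rose by 2.42 ± 0.11 and 1.36 ± 0.07 on the log2 scale. Dnmt3l, Dnmt3b and Dnmt3a, which set new methylation, fell by 2.28, 2.11 and 1.80, and Eed of Polycomb and Trim28, the partner of Zfp57, fell by 1.28 and 1.17. On the RMES mouse genome 6 were called (30%, against 44.5% of all genes), with Dppa3, which guards maternal methylation in the zygote, higher by 1.66 ± 0.10 and Eed, Trim28, Uhrf1, Ehmt2 and Tet1 lower. On the rat genome 9 were called (45%, against 42.5% of all genes), 2 higher (Tet2 and Smchd1) and 7 lower (Tet1, Dppa3, Trim28, Dnmt3l, Dnmt3b, Eed and Uhrf1). Dppa3 fell there by 1.73 on the log2 scale and so differed between the genomes by 3.38 ± 0.07 (SE, adjusted p = 1.25e-21). Zfp57 was called in none of these 4 comparisons, at -0.42 ± 0.06 on the mouse genome. Of 22 further imprinted genes outside the 49, 9 of 16 tested rose and 0 fell with mCdx2-OE in mESCs, where 18.4% of all genes were called higher and 15% lower. On the RMES mouse genome 11 of 18 rose and 1 fell, against 28.3% and 16.1% of all genes, and on the rat genome 7 of 14 rose and 1 fell, against 28.3% and 14.2%.

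Chromatin near the members was read from ATAC-seq of mESCs (WT and mCdx2-OE, 1 library each) and from Cdx2 ChIP-seq peaks, within 60 kb centred on each gene start. With 1 library a condition there is no replicate check and no test. A Cdx2 peak of mESCs lay in the window of 33 of 48 members (68.8%), against 76.2% of 19563 genes, and a peak on the mouse genome of RMES cells in 28 of 48 (58.3%), against 65.2%. Of 262 ATAC peaks counted over these windows, 18 were more open with mCdx2-OE (6.87%, against 8.11% of peaks near all genes) and 35 less open (13.4% against 13.1%), by a fold over 2 and at least 40 reads scaled to equal totals. Without scaling, 42 were more open and 13 less open (16% and 4.96%, against 16.7% and 6.17% of peaks near all genes). Members thus stood close to the background in all of these shares.

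At H19 the window held 1 Cdx2 peak, chr7:142593731-142594025, with 93 ChIP reads in mESCs and one at the same place in RMES with 80 reads, whose centre is printed above. The ATAC peak over it went from 6 to 67 reads (7.06 to 58.2 scaled), a log2 ratio of 2.88. A second ATAC peak, 3458 bases upstream of the H19 start and on the side of the control region of this locus, went from 80.1 to 31.3 scaled reads, a log2 ratio of -1.33. At Peg10 and Sgce, whose windows share 9 ATAC peaks and 6 Cdx2 peaks, 5 ATAC peaks were more open and 0 less open, up to a log2 ratio of 4.08. At Sfmbt2 the strongest of 6 Cdx2 peaks, chr2:10350510-10351256, had 794 ChIP reads, and ATAC there went from 4 to 85 reads.

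The ATAC peak at the Airn start, printed above, went from 100.1 to 260.7 scaled reads, a log2 ratio of 1.37, and the nearest Cdx2 peak lay 20330 bases away in mESCs and 5286 bases away in RMES cells. At the Nnat start ATAC went from 52.99 to 20.9 scaled reads, a log2 ratio of -1.31, in the window of a gene without a Cdx2 peak in mESCs or RMES. Phlda2, Cdkn1c and Slc22a18, which rose in RMES, had no Cdx2 peak within their windows either, and 2, 4 and 3 of their ATAC peaks in mESCs were less open with 0 more open. Their windows overlap, so that an ATAC peak can be counted for more than 1 of these genes. Phlda2 and Cdkn1c also rose in mESCs. Meg3 had 1 Cdx2 peak, 3623 bases before its start, with 105 reads. The study lists ATAC-seq for mESCs only, so accessibility in RMES cells is not known here.

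**Figure D5:**
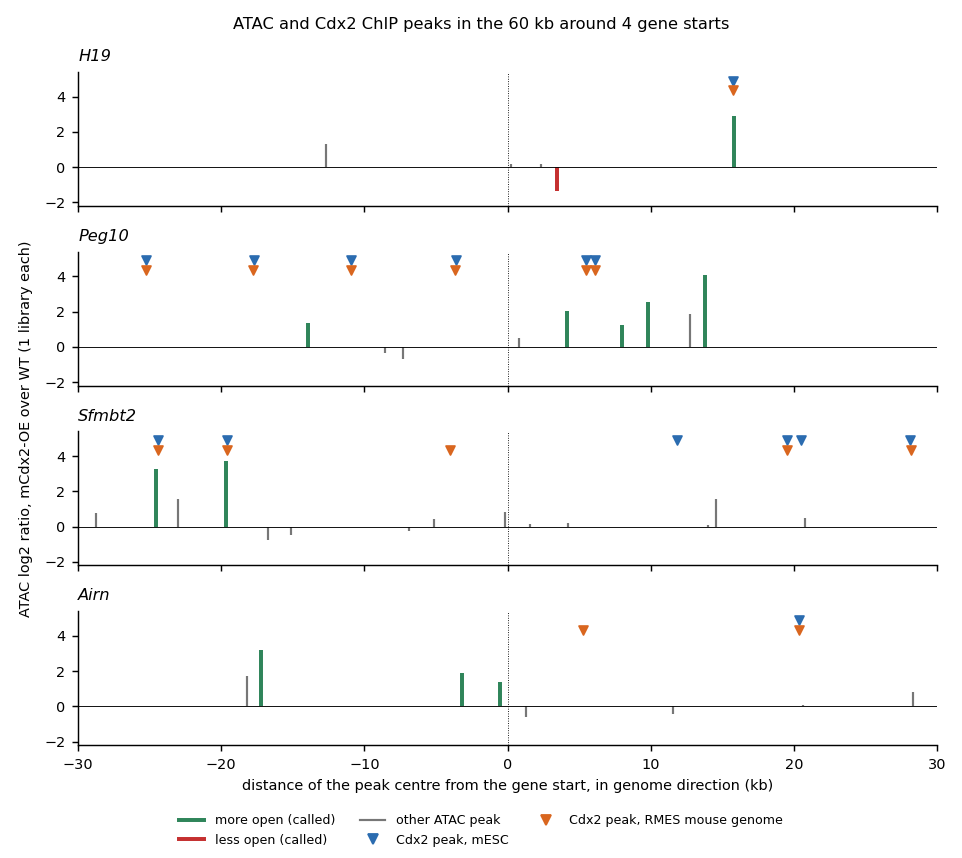
ATAC peaks (vertical lines, log2 ratio of mCdx2-OE over WT in mESCs, 1 library each) and Cdx2 ChIP peaks (triangles, mESC above and RMES mouse genome below) by distance in kb from the starts of H19, Peg10, Sfmbt2 and Airn. Green lines were more open and red lines less open past the criterion. Peg10 has 5 green lines, and at H19 the green line and both triangles stand at the same distance.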

How the data were processed

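Strand-specific poly(A) RNA-seq of mESCs (20 libraries) and RMES cells (4 libraries) was analysed, with ATAC-seq and Cdx2 ChIP-seq peaks. The authors aligned RNA reads with STAR 2.7.0d to mm10, gave each RMES read to the genome (mm10 or rn6) with the smaller edit distance, and deposited raw read counts per gene from featureCounts, run by strand on an Ensembl annotation without pseudogenes. Reads that could not be assigned to a genome, or that map better to one genome, can shift mouse shares. ATAC-seq and ChIP-seq counts per peak were deposited by the authors after Bowtie2 2.3.4.3, duplicate removal with Picard 2.6.0 and MACS2 on merged libraries, so that ChIP peaks carry no replicate information, and the mCdx2 and rCdx2 columns were only summed. The lengths and peak coordinates listed in the files were used as the authors gave them.

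Counts were tested with edgeR 4.0.16 (R 4.3.3, quasi-likelihood, TMM, filterByExpr), all 10 mESC groups in 1 model and RMES tables apart, with Benjamini-Hochberg adjustment over all genes tested. The SE of a log2 change was its size divided by the square root of F. Comparisons with WT and of genomes within WT were called at an adjusted p under 0.05 and a fold over 2, others at an adjusted p under 0.05. For the difference between genomes, the fit held a term for each library and the interaction of genome and induction. Library totals ran from 12698443 to 94686029 counts in mESCs, and spread between replicates was 2.12 to 7.64 times the sampling variance, so no replicates agreed within sampling noise. RMES mCdx2-OE and rCdx2-OE were treated as replicates in the study's manner. Scripts were tested on simulated counts. Alternatives were RLE or total-count scaling, no filter, DESeq2 1.42.0, a replicate block, no fold threshold and each library left out. Mouse shares needed 50 counts on 1 genome. Gene starts came from GENCODE for GRCm38. ATAC reads were scaled to equal totals with a pseudocount of 1.

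Members and lists were chosen with earlier results of these data known. Values in every library were given for called members with a mean of at least 50 counts, up to 12 per direction by size of change, for members read from 1 genome, and for others where a comparison needed them.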

Additional observations from a re-analysis of the deposited data

Results flagged for a closer look

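The results below came up because a test of the difference itself, an interaction in edgeR, passed an adjusted p of 0.05. For the RMES comparisons every value rests on the libraries labelled WT, which carry Cdx2 reads on both genomes, and the part of that in the differences was not tested. All values are differences of changes on the log2 scale.

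The change from the libraries labelled WT to the induced ones on the RMES mouse genome was lower than that in mESCs for 18 members. The differences were -6.37 for Rian, -5.47 for Mirg and -5.11 for Meg3, the RNAs of 1 cluster. They were -5.46 for Rasgrf1, -3.19 for Grb10, -3.19 for Peg10, -2.94 for Plagl1, -2.66 for Igf2, -2.56 for Sgce, -2.35 for Kcnq1ot1, -2.18 for Impact and -1.17 for Peg3. Smaller ones were -0.69 for Ube3a, -0.69 for Zdbf2, -0.64 for Snrpn, -0.59 for Cd81, -0.58 for Copg2 and -0.54 for Igf2r.

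It was higher for 17 members. Nnat differed by 8.57, Phlda2 by 5.71, Magel2 by 3.42, H19 by 2.41, Osbpl5 by 2.19, Dlk1 by 1.88, Cdkn1c by 1.22, Zim1 by 1.15 and Mkrn3 by 1.06. Smaller ones were 0.95 for Usp29, 0.81 for H13, 0.58 for Sfmbt2, 0.57 for Mest, 0.48 for Inpp5f and 0.47 for Mcts2. Slc22a18 at 9.05 and Slc22a3 at 5.22 had 0 counts in both libraries labelled WT, and their values depend on the prior count of the fit.

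Between the genomes of RMES cells the change was higher on the mouse genome for 14 members. Slc22a18 at 7.11 and Slc22a3 at 6.80 again depend on the prior count. Nnat differed by 5.97, Zdbf2 by 3.56, Igf2 by 3.29, Sfmbt2 by 2.41, Mkrn3 by 1.28, Inpp5f by 1.16, Peg12 by 1.07, Usp29 by 0.92, Zrsr1 by 0.58, Ube3a by 0.53, Tssc4 by 0.39 and Copg2 by 0.18. It was higher on the rat genome for 11, at -2.11 for Impact, -2.02 for Peg3, -1.67 for Snrpn, -1.59 for Plagl1, -1.42 for Mest, -1.32 for Ddc, -1.0 for Cd81, -0.76 for Igf2r, -0.75 for Gnas, -0.63 for Ndn and -0.20 for Sgce.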

How the results depend on the processing

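Of 189 called values of single members, 168 kept their direction and call in every alternative run, and 21 lost the call in at least 1 alternative while keeping their direction. Leaving out each library in turn gave 16 to 16 called members for the mean of the mESC constructs, 21 to 21 for mCdx2-OE, 22 to 24 for rCdx2-OE, 0 to 0 between them, 37 to 39 among constructs, 27 to 28 on the RMES mouse genome, 17 to 17 on the rat genome, 23 to 24 for the difference between genomes, 20 to 23 between genomes within the libraries labelled WT and 32 to 36 between RMES and mESCs. Where this left 1 library in a group, it was taken to vary like the others. DESeq2 called 2 members between mCdx2-OE and rCdx2-OE, and 21 of 12968 genes. Without the fold threshold the counts were 40, 40 and 43 in mESCs and 30 on the rat genome. With windows of 10 kb 11 members had a Cdx2 peak in mESCs (22.9%, against 28.5% of all genes). In these windows 6 ATAC peaks were more and 8 less open (6.98% and 9.3%, against 8.01% and 9.73% of peaks near all genes). Without scaling 42 were more and 13 less open (16% and 4.96%, against 16.7% and 6.17% near all genes). With at least 100 reads they were 7 and 14 (2.67% and 5.34%, against 3.55% and 4.42%). The number of members read from 1 genome was 7, 8 with a minimum of 20 counts and 7 per kb of gene model, with Inpp5f in place of Usp29, both alternatives chosen after seeing the data. With a replicate block the counts were 16, 21, 24, 0, 42 among constructs and 36 between RMES and mESCs. Deviations of same-numbered libraries correlated between -0.28 and 0.78 over pairs of groups, and 22 of 45 exceeded 0.1. Pairs of WT with a construct ran from -0.18 to -0.03, so all 22 were pairs of constructs. The numbers were not taken to pair libraries over all groups, although they also mark the table in which a library was deposited. The main fit held no term for that table. RMES changes rest on 2 libraries a group, 14 called members on the mouse genome and 8 on the rat genome had under 50 counts in a library labelled WT, as few as 8 and 4 for Phlda2, 2 and 8 for Magel2, 2 and 5 for Igf2 and 3 and 4 for Airn on the mouse genome, and ATAC-seq and ChIP-seq have no replicate.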
